A study of Malus x robusta with 27 samples.

Results

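AP2/ERF transcription factors are plant proteins that bind DNA through the AP2 domain. The members described here are all genes of the deposited expression table whose annotation carries the Pfam entry PF00847 (AP2 domain), 196 of 48445 genes. Of these, 192 carry HF identifiers of the apple HFTH1 genome and 4 were newly assembled by the authors. Apart from the domain, the AP2/ERF name was not tested against sequence, since no sequences were used here. RNA of individual whole flowers was sequenced from 3 materials of the crabapple Malus robusta, namely standard 7-year-old trees (Mr), a progeny tree selected for strong floral fragrance (SF) and a progeny tree selected for weak floral fragrance (WF). Flowers were taken at the early balloon (EB, small balloon in the sample labels), early flowering (ES) and late flowering (LS) stages with 3 replicates each, giving 9 groups and 27 libraries. SF and WF are each 1 individual, so their replicates are flowers of 1 tree, and a difference between SF and WF is a difference between 2 trees.

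The family was named after APETALA2, an Arabidopsis gene that specifies sepals and petals. ERF-type members carry a single AP2 domain and include factors that act downstream of the gaseous hormone ethylene, which in many species promotes petal senescence. DREB-type members are known for responses to cold and drought, AP2-type members for floral organ identity and flowering time, and RAV-type members, which have a B3 domain beside the AP2 domain, for slowing growth and flowering in Arabidopsis. In ethylene signalling the kinase CTR1 acts as a brake, and EIN3 is the transcription factor that switches on ERF genes.

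Libraries held 16146228 to 29558381 fragments on genes (median 19419905), and for a gene of 1 kb a count of 3 fragments corresponded to an FPKM of 0.095 to 0.193. Levels are given in FPKM, fragments per kilobase of gene length scaled to library depth, which are per length and can be compared between genes. The tests took genes that reached 1 FPKM in 3 or more libraries, which 133 of the 196 members (67.9%) and 29660 of all genes (61.2%) passed. A gene was called where limma on log2(FPKM + 1) gave an adjusted p under 0.05 over all 29660 genes, and all fold changes are on this scale, which understates the change of low genes. Some libraries stood apart. SF_LS_1 and Mr_LS_2 held transcripts otherwise seen in WF, at a median of 8.06% and 14.3% of the WF level at LS over 91 and 166 genes, and the median was 0 in the other SF and Mr libraries. No member was among these genes. WF_LS_1 had the lowest correlation with a replicate over all tested genes (r = 0.893 with WF_LS_2). Over the 133 tested members SF_EB_1 and SF_EB_3 were least alike (r = 0.792, against 0.906 over all genes), SF_LS_1 gave 0.873 and 0.863 with its replicates (0.957 and 0.939), and Mr_ES_1 gave 0.851 and 0.808 (0.978 and 0.980). MADS-box genes with a K-box, a class that includes the floral organ identity genes, were present in every group at a summed 1718 to 3145 FPKM over 60 genes.

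The summed level of the members rose with flower age. It was 2262 to 3052 FPKM in the 9 EB libraries, 2350 to 4342 at ES and 3565 to 6367 at LS, so that every LS library lay above every EB library, while ES overlapped both. The sum made up 0.277% to 0.656% of all FPKM of a library. In whole flowers, fewer cells of a type and less RNA per cell cannot be told apart. The level was concentrated in few genes. Only 8 members had a mean of at least 100 FPKM over the 27 libraries, 57 had at least 10, 75 had less than 1, and the 10 most abundant held 48.0% of the total. Of the 133 tested members, 78 (58.6%) had their highest group mean at LS, against 40.8% of all tested genes, and 35 (26.3%) had it in Mr at LS, against 11.9% of all tested genes.

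**Figure D1:**
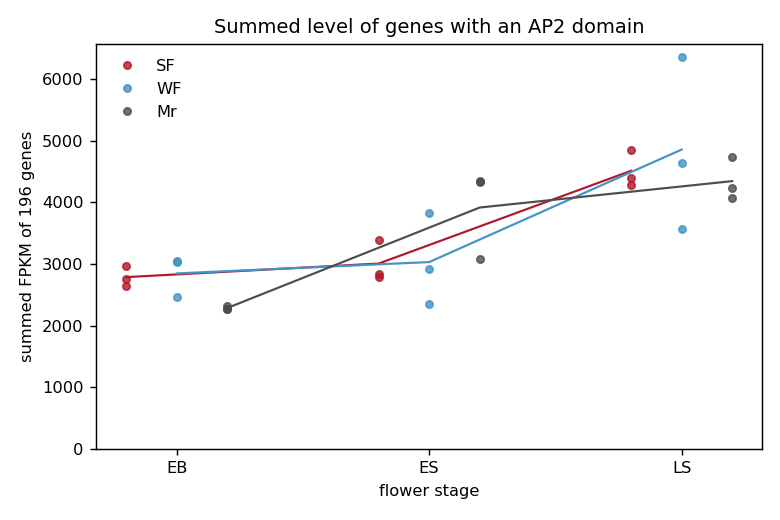
Summed FPKM of the 196 genes with an AP2 domain (y axis, linear from 0) at each flower stage (x axis). Points are single libraries and lines join the means of 3 libraries in SF, WF and Mr. The 9 LS libraries sit between 3565 and 6367, all above the 9 EB libraries.

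HF00548, the most abundant member (chromosome 9 from 14401794 to 14403983), carried an AP2 domain alone. It read 255, 336 and 262 FPKM in SF at EB, 381, 351 and 380.0 at ES, then 472, 652 and 631 at LS. In Mr it read 169.7, 159.6 and 173 at EB, 378, 447 and 358 at ES, then 564, 457 and 384 at LS. In SF the stages did not overlap, whereas in Mr ES and LS did. Averaged over the 3 materials, the level rose by 0.73 (SE 0.12, adjusted p = 7.84e-05) from EB to ES and by 0.55 (SE 0.12, adjusted p = 0.000891) from ES to LS. HF28932, ranked 2, was even between libraries at EB and ES (201 to 309.8 FPKM) and rose by 0.48 (SE 0.08, adjusted p = 0.00017) from ES to LS. In Mr it stayed at 218 to 242 at LS, below every SF and WF library of that stage (286 to 526). HF13052, ranked 6, rose at both steps, by 0.74 (SE 0.18, adjusted p = 0.00261) and then by 0.59 (SE 0.18, adjusted p = 0.0106).

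Between EB and ES, 62 of 133 members were called (46.6%, against 34.6% of all tested genes), 38 higher and 24 lower at ES. Between ES and LS, 56 were called (42.1%, against 42.3%), 38 higher and 18 lower at LS. In both steps the share of members called higher was 28.6%, against 17.7% and 20.7% of all genes, while the shares called lower were 18% against 16.9% and 13.5% against 21.6%. The median change of the members was 0.12 and 0.14 on the log2 scale, against 0.02 and 0.00 over all genes. Of the 38 members called higher at ES, 30 had a higher mean at ES in each of the 3 materials (78.9%, against 89.7% of all genes called higher), and of the 38 called higher at LS, 34 did so (89.5%, against 86.9%). Called in both steps were 33 members (24.8%, against 16.6% of all tested genes). Of these, 19 were higher in both (14.3% of members, against 4.21%), 8 lower in both (6.02%, against 5.13%), 4 higher then lower (3.01%, against 3.79%) and 2 lower then higher (1.5%, against 3.44%). Transcripts with an Ole e 1 domain, a class abundant in pollen, fell over the same stages from 5698 to 9993 summed FPKM at EB to 1335 to 2965 at LS, and their part in these results was not tested.

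Among the members that rose at both steps, HF42877 was the most abundant with values apart at every stage in every material. Its best Arabidopsis match in the study is AT5G61890, an ERF gene, and it lies on chromosome 13 from 9702632 to 9705026. In SF it read 30.0, 81.5 and 30.3 FPKM at EB, 103, 118 and 108 at ES, then 189, 260.1 and 295 at LS. In WF the values were 12.4, 13.1 and 19.2, then 56.3, 51.2 and 55.6, then 310.1, 129 and 180.3. In Mr they were 8.08, 6.29 and 9.94, then 90.4, 92.9 and 74.1, then 146, 102 and 117. No material had overlapping stages, and at each stage the highest library was a flower of SF, except at LS, where WF_LS_1 was highest. The mean level rose by 2.15 (SE 0.18, adjusted p = 5.40e-08) from EB to ES and by 1.15 (SE 0.18, adjusted p = 5.74e-05) from ES to LS.

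HF39376 and HF09724 followed the same course and were alike over the 27 libraries (r = 0.963 on the log2 scale, a description in which the points share libraries). HF39376 read 3.05 to 11.4 FPKM at EB, 30.5 to 68.7 at ES and 64.1 to 109.6 at LS over the 3 materials. Its rise of 2.70 (SE 0.18, adjusted p = 4.01e-09) from EB to ES was the largest among the members, and it rose by a further 1.19 (SE 0.18, adjusted p = 3.62e-05) to LS. For HF09724 the ranges were 5.98 to 52.9 at EB, 62.8 to 103 at ES and 119.7 to 239 at LS. For HF09724 all 9 flowers of a stage lay above all 9 of the stage before, while the ES and LS ranges of HF39376 overlapped. HF09724 rose by 2.30 (SE 0.18, adjusted p = 3.01e-08) and then by 1.05 (SE 0.18, adjusted p = 0.000166).

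HF26273 was low in buds and rose in both steps, by 2.17 (SE 0.25, adjusted p = 2.00e-06) and 2.42 (SE 0.25, adjusted p = 7.75e-07). In SF it read 4.29, 4.68 and 0.596 FPKM at EB, 14.1, 10.7 and 11.6 at ES, then 86.6, 123 and 140.1 at LS. In Mr it went from 0.433, 0.566 and 0.488 to 5.33, 7.64 and 5.17 and 21.6, 10.8 and 12.9. The stages did not overlap in either material, and at LS every SF and WF library was above every Mr library. HF18061 and HF13373 were of the same kind. HF18061 rose by 1.94 (SE 0.25, adjusted p = 7.41e-06) and 1.68 (SE 0.25, adjusted p = 3.48e-05), and HF13373 rose by 1.68 (SE 0.25, adjusted p = 4.19e-05) and 1.07 (SE 0.25, adjusted p = 0.0022). HF11991 rose only at the second step, by 2.14 (SE 0.20, adjusted p = 2.93e-07). It read 0.998 to 4.86 FPKM at ES and 11.9 to 30.3 at LS in the progeny trees, and 0.336 to 0.463 and 1.04 to 1.81 in Mr.

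The largest fall was that of HF32636, whose best Arabidopsis match in the study is AT1G15360, known there as SHINE1 or WIN1, an activator of cuticular wax synthesis. In Mr it read 79.8, 98.2 and 70.1 FPKM at EB, 2.53, 2.08 and 1.16 at ES, then 0.534, 1.16 and 0.718 at LS. In WF it read 40.4, 17.7 and 27.4 at EB, 4.59, 1.42 and 3.76 at ES, then 0.202, 0.328 and 0.474 at LS, and in SF 13.9, 2.6 and 5.06, then 1.57, 1.9 and 1.25, then 0.282, 0 and 0.244. At EB the 3 materials did not overlap, with Mr highest and SF lowest, and by LS all values but that of Mr_LS_2 were under 1. The level fell by 3.03 (SE 0.22, adjusted p = 1.08e-08) from EB to ES and by 1.13 (SE 0.22, adjusted p = 0.000443) from ES to LS.

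HF26558, ranked 10 in abundance, fell only at the first step. It read 264 to 304 FPKM in Mr, 179 to 192 in WF and 75.7 to 162 in SF at EB, and 32.2 to 94.2 over the 9 ES libraries. Each material had all its EB flowers above its ES flowers. The level fell by 1.85 (SE 0.13, adjusted p = 6.99e-09) on the log2 scale. From ES to LS the mean of HF26558 went from 71.8 to 44.3 FPKM in Mr. In SF it went from 36.5 to 45.1 and in WF from 46.4 to 54.1. HF05721 fell by 2.01 (SE 0.28, adjusted p = 1.80e-05), with 47.2 to 68.6 FPKM in Mr at EB against 8.14 to 22.3 in the progeny trees. HF32528 and HF14594 fell by 0.92 (SE 0.12, adjusted p = 1.11e-05) and 0.86 (SE 0.17, adjusted p = 0.000531), both from low levels, a mean of 1.81 and 6.48 FPKM at EB.

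**Figure D2:**
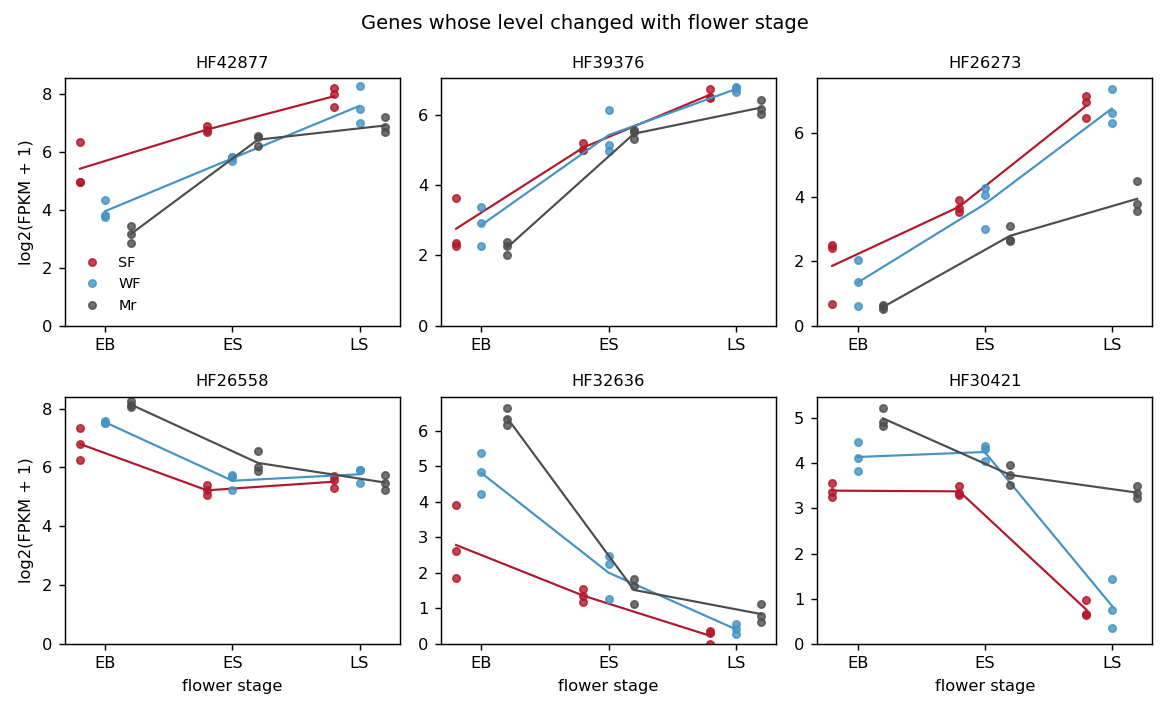
Level of 6 AP2-domain genes on the log2(FPKM + 1) scale (y axis, from 0) at EB, ES and LS (x axis). Points are single libraries and lines join the means of 3 libraries in SF, WF and Mr. HF42877, HF39376 and HF26273 rise at both steps, HF26558 and HF32636 fall from EB to ES, and HF30421 falls at LS in SF and WF more than in Mr.

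The materials differed in how the members changed between stages. The interaction of material and stage was called for 48 of 133 members (36.1%, against 15.3% of all tested genes). In Mr, 91 members had a higher mean at ES than at EB and 42 a lower one, with a median change of 0.52, whereas in SF 66 were higher and 67 lower (median -0.01) and in WF 64 and 69 (median -0.07). The corresponding medians over all genes lay between 0.00 and 0.02. Library by library, the median against Mr at EB was 0.17 for Mr_ES_1, 0.51 for Mr_ES_2 and 0.63 for Mr_ES_3. The change from EB to ES in SF differed from that in Mr for 21 members (15.8%, against 4.13%), 3 higher (against 1.41% of all genes) and 18 lower (against 2.72%) in SF than in Mr. For SF against WF the same contrast was called for 0 members and for 0.0775% of all genes (0.0405% higher and 0.0371% lower). The number of members with an interaction was 27 without Mr_EB_2 (against 9.12% of all genes), 29 without Mr_EB_1 (10.1%) and 31 without Mr_EB_3 (10.5%), and 34 to 63 with any other single library left out. The 21 members of the contrast of SF with Mr became 7 without Mr_ES_2 (against 1.74% of all genes), 8 without SF_EB_2 (1.85%) or Mr_EB_2 (1.88%), 10 without SF_ES_1 (2.13%) or SF_ES_2 (2.15%), 12 without SF_EB_3 (3.23%) or Mr_EB_1 (2.37%), and 9 by voom (2.31%).

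HF25445 and HF23923 differed in this way and were alike over the 27 libraries (r = 0.922). In Mr HF25445 read 5.6, 6.71 and 7.43 FPKM at EB, 23.4, 37.6 and 32 at ES, then 38.7, 37.5 and 26.8 at LS. In SF it read 3.48, 5.24 and 4.38, then 3.95, 4.11 and 3.34, then 11.6, 7.49 and 4.55. The Mr flowers at ES and LS lay above all 18 flowers of the progeny trees. From EB to ES it rose in Mr by 2.06 (SE 0.25, adjusted p = 6.87e-06), and the change in SF differed from it by -2.21 (SE 0.35, adjusted p = 0.00125). HF23923 likewise read 7.06 to 7.88 at EB, 20.1 to 34.3 at ES and 25.9 to 32.7 at LS in Mr, against 1.31 to 6.85 over all SF and WF libraries. The change in SF differed by -1.78 (SE 0.38, adjusted p = 0.0104), a call lost by voom.

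HF42218, 1 of the 2 tested members with a B3 domain, was already high in the buds of the progeny trees. At EB it read 41.6, 75.4 and 48.2 FPKM in SF, 96.6, 55.1 and 92.5 in WF and 4.56, 4.37 and 5.22 in Mr. At ES in Mr it read 15.1, 47.4 and 58.7 and at LS 53.5, 105 and 82.7, where it overlapped SF (110.2, 91.8 and 160.1). The rise from EB to ES was 2.66 (SE 0.50, adjusted p = 0.000579) in Mr, and in SF the change was 0.50 (SE 0.50, adjusted p = 0.679). HF01242 had the same shape, with 3.0, 2.95 and 3.85 in Mr at EB against 14.6, 20.3 and 18.9 in SF, and 13.3, 62.1 and 70.5 against 10.6, 13.4 and 15.1 at ES. Here Mr went from below SF in every EB flower to above it in 2 of 3 ES flowers, and the contrast was -3.67 (SE 0.65, adjusted p = 0.00335).

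HF30421 had the smallest interaction p of all members (adjusted p = 3.56e-05) and differed at the second step. In SF it read 10.8, 9.32 and 8.54 FPKM at EB, 8.85, 10.4 and 9.08 at ES, then 0.567, 0.956 and 0.573 at LS. In WF the values were 21.3, 16.3 and 13.3, then 19, 19.8 and 15.7, then 0.271, 1.72 and 0.682, and in Mr 29.4, 36.7 and 27.5, then 10.6, 12.4 and 14.5, then 8.36, 9.08 and 10.3. At LS every Mr flower was above every SF and WF flower. From ES to LS the level fell by 2.62 (SE 0.21, adjusted p = 2.03e-07) in SF and by 3.41 (SE 0.21, adjusted p = 5.33e-09) in WF, and the change in Mr was -0.39 (SE 0.21, adjusted p = 0.518). The contrast of SF with Mr at this step was called for 6 members (4.51%, against 4.01% of all genes). HF25607, HF25605 and HF18564 were, with HF30421, lower in SF than in Mr by this contrast (2.18% of all genes), and HF11991 and HF41012 were higher (1.83%). For SF against WF at this step it was called for HF02343 alone, as higher in SF (0.752%, against 0.287% of all genes, 0.142% higher and 0.145% lower). The 6 members became 16 without SF_LS_1 (against 10.8% of all genes), 2 without SF_LS_2 (1.54%) or SF_LS_3 (1.32%), and 3 without SF_ES_1, SF_ES_3, Mr_ES_2, Mr_ES_3 or Mr_LS_1 (1.70% to 2.70%), and the calls of HF11991 and HF41012 were lost in 12 and 13 alternatives.

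SF and WF, the trees selected for strong and weak fragrance, were compared over the stages and at each stage. Averaged over stages, 21 were called (15.8%, against 26.8% of all tested genes), 13 higher (against 14.2%) and 8 lower (against 12.6%) in SF. At EB 4 members were called (3.01%, against 7.59%), 1 higher (against 4.23%) and 3 lower (against 3.35%). At ES 6 were called (4.51%, against 8.14%), 2 higher (against 4.43%) and 4 lower (against 3.71%). The count at EB was 2 without SF_EB_2 (against 3.74% of all genes) or WF_EB_3 (3.86%) and 7 without SF_EB_1 (6.90%), and that at ES was 2 without SF_ES_1 (3.62%) or SF_ES_3 (4.39%) and 3 without SF_ES_2 (4.67%) or WF_ES_3 (4.65%). At LS limma called 0 members (against 3.35% of all genes, 1.72% higher and 1.63% lower). There it gave 7 members an unadjusted p under 0.05 (5.26%, against 15.0% of all genes), and limma voom on recovered fragments called 1 (against 2.71%). With array weights, which weight each library by its fit, the counts were 46 over the stages (against 44.3% of all genes), with 20 higher and 26 lower, and 7, 29 and 34 at EB, ES and LS (against 10.8%, 24.0% and 46.9%). The share of members called was below that of all genes in each of these fits, but the differences themselves were not smaller. The median absolute log2 difference was 0.219 in members over the stages, against 0.182 over all genes. It was 0.369 against 0.273 at EB, 0.207 against 0.207 at ES and 0.249 against 0.223 at LS. Members also spread more within groups (median pooled standard deviation 0.409 against 0.254), and the part of this spread in the shares was not tested. The 3 flowers of SF did not overlap those of WF for 43 members at EB (32.3%, against 32.4% of all genes), 30 at ES (22.6%, against 28.2%) and 12 at LS (9.02%, against 21.2%).

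HF41805, at chromosome 14 from 19487689 to 19488666, was the member with the largest average excess in SF over WF. Its best Arabidopsis match in the study is AT1G64380, whose type (ERF or DREB) was not assigned here. In SF it read 31.3, 43 and 21 FPKM at EB, 68.3, 76.4 and 59.6 at ES, then 64.6, 28.6 and 28.2 at LS. In WF it read 16.5, 12.3 and 14.3, then 23.9, 36.1 and 12.6, then 3.48, 18.2 and 22.7, and in Mr 9.9 to 25.6 over all stages. At each stage every SF flower was above every flower of WF and Mr. The difference from WF over the stages was 1.40 (SE 0.27, adjusted p = 0.00042) and from Mr 1.36 (SE 0.27, adjusted p = 0.000225). At ES alone, SF against Mr gave 1.98 (SE 0.19, adjusted p = 0.000836).

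HF08605 was low in WF rather than high in SF. It read 26.3, 21.9 and 25.2 FPKM in WF at EB, 28.8, 34.6 and 25.7 at ES, then 2.34, 19.9 and 22.7 at LS. SF held 38.9 to 65.6 and Mr 43.5 to 131 over the stages, and WF lay below both at each stage without overlap. WF against Mr gave -1.85 (SE 0.25, adjusted p = 3.37e-06), and SF against WF 1.25 (SE 0.25, adjusted p = 0.000712). HF42877 was also higher in SF, by 0.93 (SE 0.18, adjusted p = 0.00046) over the stages and by 0.99 (SE 0.09, adjusted p = 0.00269) at ES. HF23605, best matched to AT5G52020 (type not assigned here), differed by 0.96 (SE 0.26, adjusted p = 0.00802). It read 7.35, 20.3 and 9.77 in SF at EB against 3.23, 2.91 and 7.58 in WF, where the groups overlapped.

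Lower in SF than in WF were HF02343, HF32636, HF14594, HF32478 and HF30421 among others. HF02343 was read in WF at EB (1.62, 3.06 and 3.04 FPKM) and ES (1.29, 1.4 and 1.36), and at 0 to 0.231 in SF and 0 to 0.195 in Mr over all stages. Outside WF at EB and ES it was thus near the floor of 3 fragments, and the fitted difference of -1.02 (SE 0.08, adjusted p = 1.26e-09) is no bound. HF32636 differed by -0.95 (SE 0.22, adjusted p = 0.00239), HF14594 by -0.82 (SE 0.17, adjusted p = 0.000788) and HF32478 by -0.62 (SE 0.16, adjusted p = 0.00706). At EB, HF01240 read 11.5, 13.9 and 15.7 in SF and 43, 27.4 and 31.4 in WF, without overlap, a difference of -1.23 (SE 0.20, adjusted p = 0.0197) that was not called without SF_EB_2 or WF_EB_3. At ES, HF24247, a gene of 0.25 to 2.85 FPKM over all libraries, was higher in SF by 0.64 (SE 0.10, adjusted p = 0.0174), and the call was lost without any SF flower of that stage, WF_ES_2 or WF_ES_3.

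**Figure D3:**
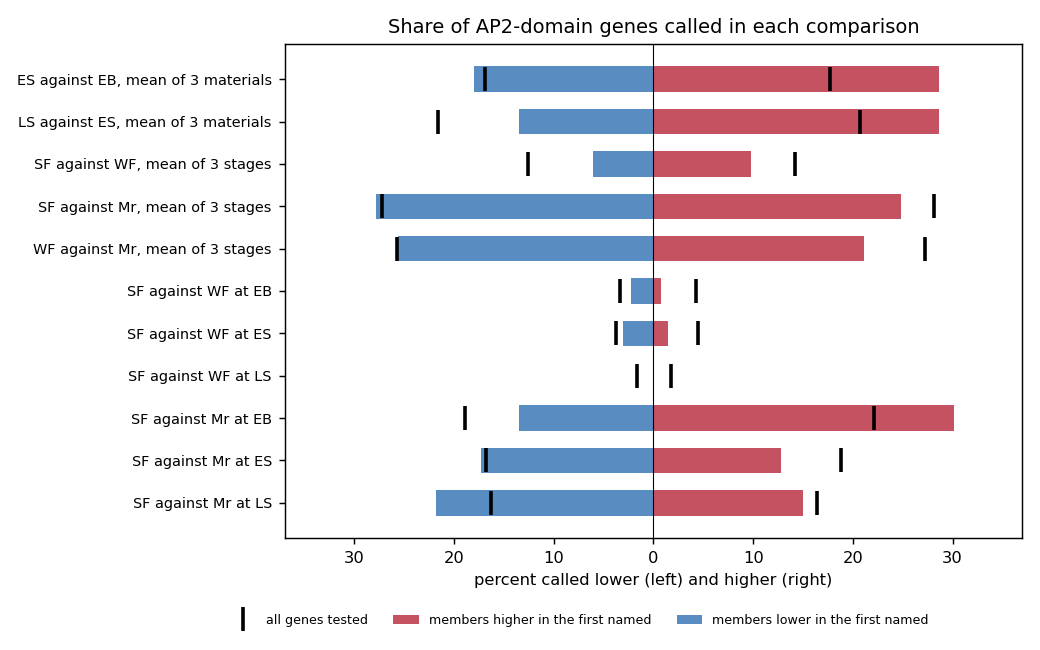
Percent of the 133 tested AP2-domain genes called higher (right, red bars) or lower (left, blue bars) in the first-named group of each comparison (x axis, percent). Black ticks give the percent of all 29660 tested genes. The red bars pass their ticks at ES against EB (28.6% against 17.7%), LS against ES (28.6% against 20.7%) and SF against Mr at EB (30.1% against 22.1%). SF against WF has short bars throughout.

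Both progeny trees differed from Mr in many members. Averaged over stages, 70 were called for SF against Mr (52.6%, against 55.3% of all tested genes), 33 higher (against 28.1%) and 37 lower (against 27.2%) in SF, and 62 for WF against Mr (46.6%, against 52.8%), 28 higher (against 27.2%) and 34 lower (against 25.7%) in WF. These comparisons share the Mr libraries. At EB 58 members were called for SF against Mr (43.6%, against 41.0%), 40 higher (against 22.1%) and 18 lower (against 18.9%). At ES 40 were called (30.1%, against 35.6%), 17 higher (against 18.8%) and 23 lower (against 16.8%), and at LS 49 (36.8%, against 32.7%), 20 higher (against 16.4%) and 29 lower (against 16.3%). The median difference of members was 0.18, -0.13 and -0.36 at EB, ES and LS, against 0.01, 0.01 and -0.03 over all genes. Scaled by total fragments, the calls at ES were 18 higher and 18 lower. The count at EB was 37 without Mr_EB_1 (against 25.9% of all genes) or Mr_EB_2 (26.1%), that at ES 26 without SF_ES_1 (24.3%), and that at LS 26 without SF_LS_2 (17.2%), 30 without SF_LS_3 (20.3%) or Mr_LS_3 (21.9%) and 31 without Mr_LS_2 (22.0%). Flowers of SF and Mr did not overlap for 80 members at EB (60.2%, against 56.5%), 60 at ES (45.1%, against 50.8%) and 64 at LS (48.1%, against 50.8%). Of 19 members called at both EB and LS (14.3%, against 19.1%), 17 had the same direction (89.5%, against 93.9% of all genes called at both), and HF01327 and HF02738, the latter chosen after its values were seen, were higher in SF at EB and lower at LS. Genes of chlorophyll a/b binding proteins were higher in Mr as well (11697 to 12273 summed FPKM in Mr at ES, 5780 to 6474 in SF). Rubisco small subunit genes, also of green tissue, overlapped at ES (1399 to 1610 in Mr, 1289 to 1457 in SF). At EB these Rubisco genes read 908 to 960 in Mr, 694 to 1310 in SF and 1572 to 1987 in WF. The part of either class in these results was not tested.

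Of the members higher in SF than in Mr, HF23792, ranked 4 in abundance, differed at every stage. It read 101, 124 and 102 FPKM in SF at EB and 15.2, 15 and 18.5 in Mr, 109, 154 and 162 and 20.9, 27 and 23 at ES, then 162, 424 and 427 and 48.5, 129 and 20.6 at LS. The groups overlapped at no stage, and WF (76.9 to 768 over the stages) overlapped SF at each stage. SF against Mr gave 2.59 (SE 0.37, adjusted p = 5.32e-06) and WF against Mr 2.59 (SE 0.37, adjusted p = 6.23e-06). HF26273 differed by 1.69 (SE 0.25, adjusted p = 6.77e-06), HF11991 by 1.82 (SE 0.20, adjusted p = 1.10e-07) and HF13373 by 1.57 (SE 0.25, adjusted p = 2.24e-05). At EB the largest calls were HF23607 (at 0 in the Mr flowers, 5.83, 28.8 and 25.9 FPKM in SF), HF25755 with 3.38 (SE 0.53, adjusted p = 0.0049) and HF42218 with 3.25 (SE 0.22, adjusted p = 0.000311). HF41012 differed by 1.01 (SE 0.18, adjusted p = 5.50e-05) over the stages. Averaged over the materials it fell from EB to ES, then rose by 1.61 (SE 0.18, adjusted p = 1.47e-06) to LS. Its means at EB, ES and LS were 67.7, 32.7 and 152 FPKM in SF and 75, 38.9 and 180 in WF. In Mr they were 28.6, 31 and 43.4, without a fall at ES.

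Lower in SF than in Mr were HF23923 (-2.27 (SE 0.15, adjusted p = 8.03e-11)), HF25445 (-1.76 (SE 0.14, adjusted p = 1.21e-09)), HF03859 (-1.84 (SE 0.26, adjusted p = 5.21e-06)) and HF12669 (-1.20 (SE 0.15, adjusted p = 8.05e-07)). HF12669 read 9.94, 17.5 and 11 FPKM in Mr at EB against 1.5, 1.8 and 1.97 in SF and 3.86, 2.95 and 3.58 in WF. HF03859 read 4.98, 20.1 and 17.1 in Mr at ES against 1.24, 1.09 and 1.89 in SF. Both pairs of groups did not overlap. HF37827, best matched to AT2G40340, a DREB-type gene, read 4.04 to 7.39 in Mr and 0.992 to 1.16 in SF at ES and 7.5 to 10.4 against 0.967 to 2.83 at LS, with -1.41 (SE 0.14, adjusted p = 3.45e-08) over the stages. HF01327 read 11.1, 77.7 and 30.4 in SF and 3.87, 2.62 and 6.72 in Mr at EB, and 45.8, 15.8 and 20.5 and 103, 77.2 and 150.2 at LS. The groups overlapped at neither stage and changed order, with 2.59 (SE 0.70, adjusted p = 0.0298) at EB and -2.06 (SE 0.42, adjusted p = 0.0145) at LS. The call at EB was lost without SF_EB_3 or any Mr flower, and that at LS without SF_LS_3.

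**Figure D4:**
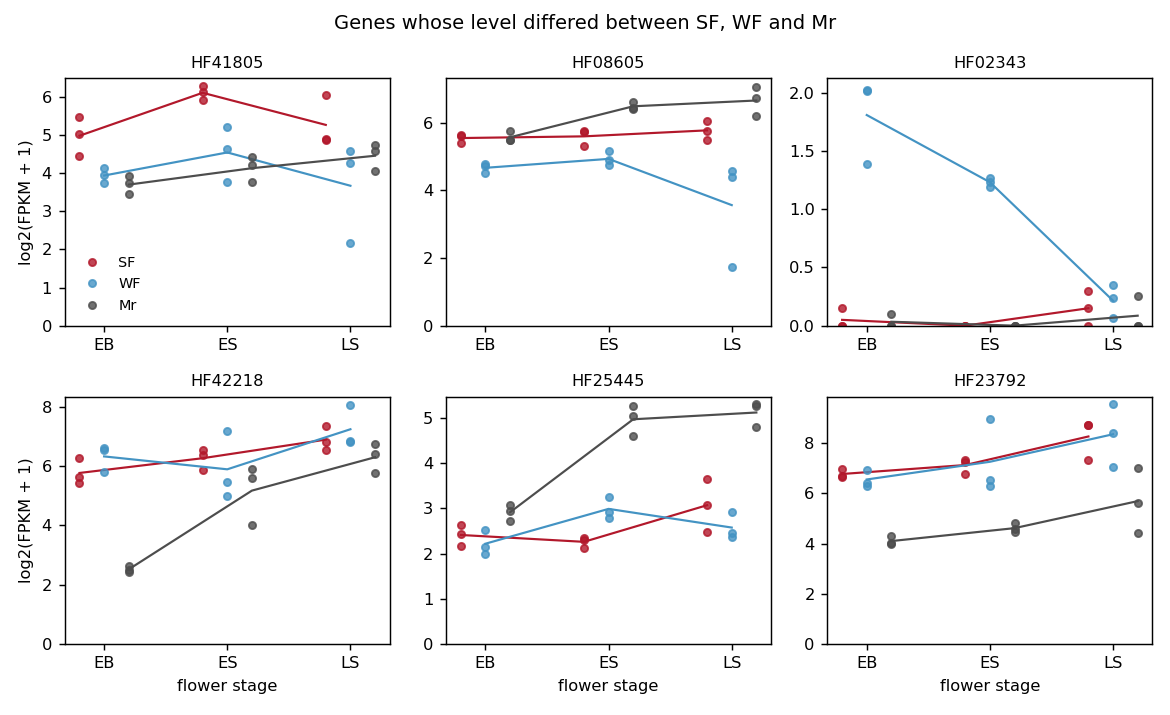
Level of 6 AP2-domain genes on the log2(FPKM + 1) scale (y axis, from 0) at EB, ES and LS (x axis). Points are single libraries and lines join the means of 3 libraries in SF, WF and Mr. SF is highest for HF41805, WF is lowest for HF08605, HF02343 is read mainly in WF, Mr is lowest for HF23792 and for HF42218 at EB, and Mr is highest for HF25445.

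A further set of members varied widely between flowers of the same group. The pooled standard deviation within groups, on the log2 scale, had a median of 0.409 over the 133 tested members and of 0.254 over all tested genes, and it was at least 1 in 12 members (9.02%) against 2.19% of all genes. The 2 widest were HF22606 (1.84) and HF30831 (1.75). HF30831 read 1.1, 5.41 and 44.3 FPKM in SF at EB, 0.0627, 0.808 and 0 at ES, then 12.5, 0.0899 and 0.0848 at LS. In WF it read 49.7, 11.4 and 55.4, then 0.258, 2.44 and 0.94, then 0.281, 1.16 and 0.353, and in Mr 0.225, 0.135 and 1.46, then 0.853, 97.6 and 164, then 16.7, 84.9 and 173. The level was thus above 10 FPKM in SF_EB_3, the 3 WF buds, SF_LS_1 and 5 of 6 open Mr flowers, and Mr_ES_1 stayed near 0 like the Mr buds. HF22606, on chromosome 5, followed HF30831, on chromosome 15, flower by flower (r = 0.983 over 27 libraries).

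Among the 10 widest members, deviations from the group means had a median correlation of 0.712 over 45 pairs, with a range of -0.556 to 0.990. HF43941, HF23607, HF19055, HF08310 and HF25750 were high in the same flowers as HF30831, and HF38751 and HF26291 ran the other way. In Mr at ES, HF43941 read 0.266, 19.2 and 41.2 FPKM, HF19055 0.45, 6.9 and 21.9 and HF08310 0.149, 13.9 and 18.9. In each case Mr_ES_1 was far below the other 2 flowers. In SF at LS, HF23607 read 28.5, 0 and 0.0875 and HF25934, best matched to the cytokinin response factor AT4G27950, read 14.8, 2.78 and 2.79, with SF_LS_1 above the others. SF_LS_1 is the SF library with transcripts seen in WF. In WF at LS HF23607 read 0.29, 6.62 and 0.364 and HF25934 3.21, 4.35 and 3.86. The WF means at EB were 18.3 for HF23607 and 11.2 for HF25934. The part of WF transcripts in the values of SF_LS_1 was not tested.

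Several calls between groups for these genes rest on few flowers. Others do not: the calls of HF23607 and HF25755 for SF against Mr at EB were lost in no alternative. That of HF30831 for SF against Mr over the stages was lost by voom alone. For SF against Mr at LS, HF30831 gave -4.67 (SE 1.24, adjusted p = 0.032) and HF43941 -3.57 (SE 1.06, adjusted p = 0.0457), and both were lost when Mr_LS_2, Mr_LS_3, SF_LS_2 or SF_LS_3 was left out. HF22606 was called for SF against Mr over the stages (-2.04 (SE 0.81, adjusted p = 0.0389)), and this call was lost in 15 alternatives. For HF22606 and HF30831 the average over the stages joins stages of opposite direction. At EB their means were 18.1 and 16.9 FPKM in SF against 0.329 and 0.606 in Mr. At ES they were 0.56 and 0.29 in SF against 91.7 and 87.4 in Mr. Neither gene was called at EB or ES. HF25934 was called for SF against Mr at ES (-3.09 (SE 0.93, adjusted p = 0.0459)), with 2.65, 37.1 and 40.6 in Mr, and the call was lost without Mr_ES_2, Mr_ES_3 or any SF flower of that stage. HF21343 varied mainly at LS, with 37.8, 0.456 and 1.72 in SF and 4.8, 46 and 4.65 in WF.

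**Figure D5:**
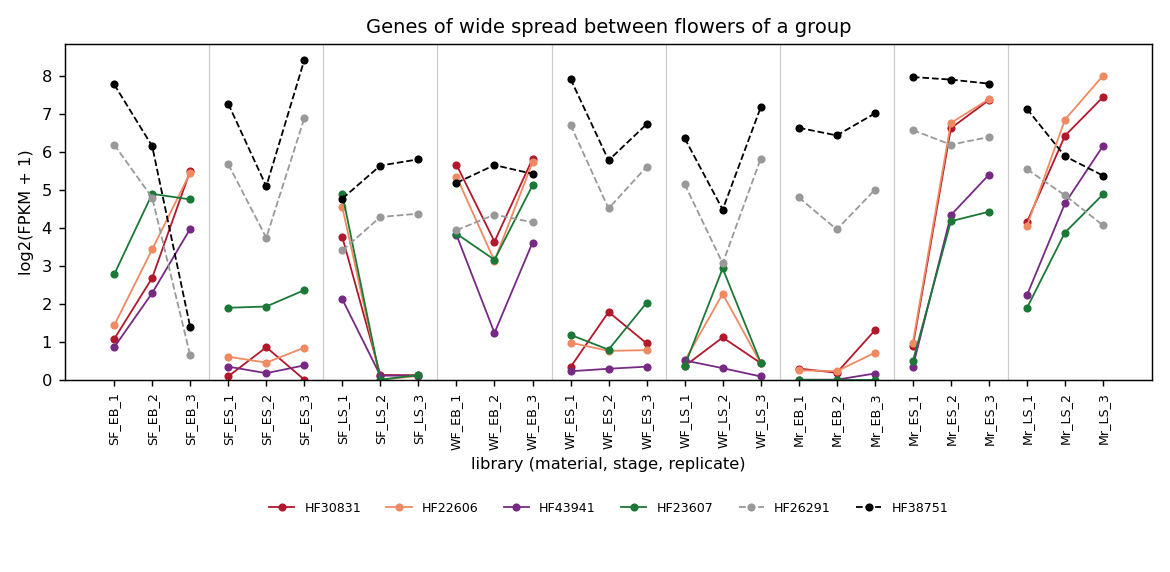
Level of 6 AP2-domain genes on the log2(FPKM + 1) scale (y axis, from 0) in each of the 27 libraries (x axis), with grey lines between groups and points of a group joined. HF30831, HF22606, HF43941 and HF23607 (solid lines) are high in the same flowers of a group, with Mr_ES_1 below Mr_ES_2 and Mr_ES_3, and HF26291 and HF38751 (dashed lines) follow another course.

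Members that neighbour each other on a chromosome did not always share a pattern. With a limit of 100 kb between neighbours, 25 runs held 60 of the 196 members, and the largest held 5 on chromosome 7 between 11470114 and 11656223, of which HF14594 alone passed the filter. HF34816 and HF34812 on chromosome 8 were alike over the libraries (r = 0.886). Both were at 0 in the 3 Mr buds and both rose from EB to ES, by 1.47 (SE 0.37, adjusted p = 0.0045) and 1.26 (SE 0.41, adjusted p = 0.0223), the latter a call lost without SF_EB_3 or WF_ES_3. HF23607 and HF23605 on chromosome 1 gave r = 0.712, and HF01240 and HF01242 on chromosome 4 gave r = 0.455. For deviations from the group means these pairs gave 0.781 and 0.728, and HF34816 and HF34812 gave 0.914. In WF, HF01240 went from 43, 27.4 and 31.4 FPKM at EB to 5.55, 9.56 and 9.29 at LS, while HF01242 went from 26.6, 17.3 and 29.1 to 34.1, 19.3 and 21.7. HF23793, beside the abundant HF23792, read 2.45 to 12.4. Near-identical copies could share reads, and the counting that made the table is not described for such reads.

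The study's own list of transcription factors holds 10 members, all of which passed the filter. It was chosen by the study on these samples, so its direction is not independent evidence. From its heatmap the paper names HF41805 among the transcription factors closely associated with its predominant volatiles. Of the 10, 5 were called for SF against WF over the stages (against 26.8% of all tested genes), 7 for SF against Mr (55.3%) and 2 for WF against Mr (52.8%). For SF against Mr 5 were called at EB (41.0%), 6 at ES (35.6%) and 4 at LS (32.7%). For SF against WF 3 were called at ES (8.14%), and limma called 0 at EB (7.59%) and 0 at LS (3.35%), where 6 and 1 had an unadjusted p under 0.05 and voom called 0 and 1. HF40428, best matched to AT2G28550, an AP2-type gene known in Arabidopsis as RAP2.7 or TOE1 and as a repressor of flowering, read 6.83, 6.7 and 7.72 FPKM in SF at ES, 9.76, 8.23 and 13.6 in WF and 11.9, 12.7 and 10.6 in Mr. SF lay below both, and the difference from Mr at ES was -0.65 (SE 0.11, adjusted p = 0.00658). HF37411, best matched to AT4G17500, the ethylene responsive element binding factor ERF1A, read 93.3, 30.6 and 44.6 in WF at EB, 11.7, 20.9 and 34.3 in SF and 4.67, 4.04 and 5.83 in Mr, with 1.88 (SE 0.37, adjusted p = 0.0108) for SF against Mr. HF32335, best matched to AT2G20880 (type not assigned here), read 59.4, 2.19 and 1.27 in SF at LS, so that a single flower held most of it.

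Of the 196 members, 5 carry a B3 domain, and 2 of them passed the filter. Averaged over the materials, HF07708 on chromosome 16 rose by 1.13 (SE 0.38, adjusted p = 0.027) from EB to ES and by 1.44 (SE 0.38, adjusted p = 0.00544) from ES to LS. The call of the first step was lost without WF_EB_2 or Mr_ES_2 and by voom. It read 0.191, 0.0763 and 0.276 FPKM in Mr at EB against 2.89, 5.93 and 3.71 in SF, without overlap (2.09 (SE 0.23, adjusted p = 0.00143)), and the WF flowers at LS read 18, 93.3 and 38.8. HF29599 read up to 1.27 FPKM, HF30245 up to 1.06, and HF18401 was listed at 0 in every library. A further 9 members carry a domain of another kind and all passed the filter. HF42484, with pectate lyase and alpha-amylase domains, and HF38751, with a pectate lyase domain, were ranked 5 and 8 in abundance. Pectate lyases break down cell wall pectin and alpha-amylases starch, and whether reads came from the AP2 domain of these models cannot be told from a value per gene. They were alike over the libraries (r = 0.893). HF42484 fell by 0.97 (SE 0.27, adjusted p = 0.00679) from ES to LS, and HF38751 read 219, 70.1 and 1.61 in SF at EB and was called in none of the tests. Without these 9 models the summed level was 1895 to 2830 FPKM at EB and 3403 to 6121 at LS.

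Genes upstream of ERF factors in ethylene signalling were sought as all genes with an EIN3 domain (PF04873) or a Le-CTR1 domain (PF14381). The Le-CTR1 domain is annotated beside a separate kinase domain, and it does not show which of these genes act in ethylene signalling. Of 11 genes with an EIN3 domain, 6 were tested. Of these, 4 were higher and 0 lower at LS than at ES (against 20.7% and 21.6% of all tested genes), 4 were higher and 1 lower in SF than in Mr (28.1% and 27.2%), and 4 were higher and 0 lower in WF than in Mr (27.2% and 25.7%). Between EB and ES limma called 0 (34.6%), with 2 at an unadjusted p under 0.05, and voom called 0. HF06632, the most abundant, had group means of 51.3, 64.1 and 75.9 FPKM in Mr at EB, ES and LS, against 108, 79.7 and 149.7 in SF. Of 14 genes with the Le-CTR1 domain, all were tested. Of these, 6 were higher and 0 lower at ES than at EB (17.7% and 16.9%), and 3 were higher and 4 lower at LS than at ES. Against Mr, 3 were higher and 5 lower in SF, and 3 higher and 5 lower in WF. HF34950 had group means of 31, 111 and 91.2 FPKM in Mr and of 17 to 28.7 in SF and WF. Between SF and WF, 1 EIN3 gene was lower (against 12.6% of all tested genes) and 1 gene with the Le-CTR1 domain higher (14.2%) in SF.

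The 63 members that did not pass the filter were low throughout. In 49 of them every value was under 1 FPKM, 7 were at 0 in all libraries, and the highest single value was 4.66 FPKM in HF35502. Of the 133 tested members, 119 were called in at least 1 of the averaged comparisons or the interaction (89.5%, against 88.7% of all tested genes), and 14 in none.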

How the data were processed

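Whole single flowers of SF, WF and Mr at EB, ES and LS gave RNA that was sequenced as 150 bp paired-end reads, with 3 replicates per group. The authors mapped reads to the apple HFTH1 genome and deposited FPKM per gene. Aligner and counter: not given in the sources used here; submitters' processing notes name StringTie 1.3.3b and DESeq2 1.16.1 without a role. Multiplied by gene length, values were whole multiples of 1 step per library, so fragments were recovered for depth and for limma voom. The members are all genes with PF00847, and members and lists were chosen with earlier results of these data known.

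Tests used limma (version 3.58.1, R version 4.3.3) with an intensity trend on log2(FPKM + 1) values and Benjamini-Hochberg adjustment over 29660 genes with FPKM of at least 1 in at least 3 libraries. Averaged comparisons and the interaction came from a fit of all 27 libraries, and comparisons at a stage from fits of the groups compared. All p-values measure the spread between flowers of these trees. The floors cover only counting error. The replicate numbers did not pair the flowers (1 of 36 group pairs had every correlation over 0.1). The fits were tested on simulated data with the same dispersion for every gene and group. The groups here had unequal spread, which that test did not cover. Tables and plots were made with Python 3.11.15, numpy 2.4.6, pandas 2.3.3 and matplotlib 3.10.9.

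Named genes are the 10 most abundant members, the 5 largest rises and falls called in each averaged comparison, the 3 of smallest interaction p, the 3 largest rises and falls called in each comparison at a stage, the study's 10 listed members, members with a B3 domain, and members with a mean of at least 1 FPKM in a material and under 0.05 in another. Genes described for their spread within groups, their neighbours, their correlations or their contrasts were chosen after their values were seen. Alternatives were a pseudocount of 0.1, no filter, FPKM of at least 5, scaling by total fragments, voom, a replicate block, array weights, all 9 groups in a fit, a fold limit of 1 on the log2 scale, and each library left out. No sequences are printed, since none were used here.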

Additional observations from a re-analysis of the deposited data

Results flagged for a closer look

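For 34 of the genes named here the change between stages differed between the materials by the interaction test of limma, with adjusted p over all tested genes. The smallest values were those of HF30421 (3.56e-05), HF02343 (4.69e-05), HF01242 (0.000895) and HF25445 (0.000999). HF23923 gave 0.00114, HF18032 0.00167 and HF32636 0.00193, while HF01240 gave 0.0054, HF03250 0.00599 and HF11991 0.0063. HF01327 and HF37827 each gave 0.00725, followed by HF30831 with 0.00736, HF12669 with 0.00949 and HF22606 with 0.00977. HF43111, ranked 7 in abundance, gave 0.0106; it read 655, 183 and 249.8 FPKM in WF at LS against 72.9, 89.3 and 66 in Mr, where the groups did not overlap. HF43941 gave 0.0125, HF03859 0.0135, HF23605 0.0146, HF42218 0.0154, HF08310 0.0184 and HF42877 0.0196. HF25607 gave 0.0213, HF23607 0.0261, HF02738 0.0278, HF18564 0.0294, HF44321 0.0307, HF09724 0.0321, HF26558 0.0321 and HF25750 0.0323, and HF25605 gave 0.0359, HF25755 0.0375, HF19055 0.0382 and HF41012 0.0389. The interaction p does not say which materials differed. For HF44321 the change from EB to ES in SF differed from that in Mr by -1.83 (SE 0.48, adjusted p = 0.0352), with 64.8, 53.4 and 72.1 FPKM in Mr at EB and 123, 241 and 253 at ES, a call lost in 12 alternatives.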

How the results depend on the processing

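Of 211 results for single genes, 140 were called, and 103 of these calls were kept under every alternative that was run. Over 5619 alternative values, 231 lost a call, 78 gained one and 0 called values changed direction. The calls lost in most alternatives were those of HF41805 for ES against EB (20), HF22606 for SF against Mr over the stages (15), HF32636 for SF against Mr at LS (14) and HF12669 for SF against WF at EB (13). Percentages in parentheses are the shares of all genes called in the same fit. Depth limits low genes. For most counts the cause of a change was not tested.

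With a fold limit of 1 on the log2 scale, members called were 18 (5.32%) for ES against EB, mean of 3 materials, 16 (7.35%) for LS against ES, mean of 3 materials, 4 (4.7%) for SF against WF, mean of 3 stages, 26 (12.7%) for SF against Mr, mean of 3 stages, and 22 (11.3%) for WF against Mr, mean of 3 stages. The same limit left 2 (4.68%) for SF against WF at EB, 1 (4.59%) for SF against WF at ES, 18 (13.8%) for SF against Mr at ES and 32 (15.8%) for SF against Mr at LS, since fewer genes can pass it. Array weights gave 46 (44.3%) for SF against WF, mean of 3 stages (20 higher and 26 lower, against 13 and 8), 100 (64.8%) for the material by stage interaction, 7 (10.8%), 29 (24%) and 34 (46.9%) for SF against WF at EB, SF against WF at ES and SF against WF at LS, 70 (63.1%) for SF against Mr at ES and 90 (56.3%) for SF against Mr at LS. Voom on recovered fragments gave 26 (10.1%) for the material by stage interaction and 1 (2.71%) for SF against WF at LS. Scaling by total fragments gave 1 (3.21%) for SF against WF at LS, and 18 higher and 18 lower for SF against Mr at ES. The filter at FPKM of at least 5 gave 2 (5.78%) for SF against WF at EB and 2 (6.6%) for SF against WF at ES. A fit of all 9 groups gave 13 (15.9%) for SF against WF at EB and 7 (11.6%) for SF against WF at LS. The replicate block, which the numbers do not warrant, gave 2 (2.45%) for SF against WF at EB, 21 (21.2%) for SF against Mr at ES and 31 (23.3%) for SF against Mr at LS.

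With single libraries left out, the counts were 54 to 64 (30.1% to 37.7%) for ES against EB, mean of 3 materials, 47 to 59 (37.1% to 45.5%) for LS against ES, mean of 3 materials, 19 to 26 (24.1% to 28.6%) for SF against WF, mean of 3 stages, 67 to 72 (52.7% to 57.6%) for SF against Mr, mean of 3 stages, 58 to 68 (49.7% to 54.1%) for WF against Mr, mean of 3 stages, and 27 to 63 (9.12% to 25.6%) for the material by stage interaction. At single stages they were 2 to 7 (2.94% to 6.9%) for SF against WF at EB, 2 to 7 (3.62% to 6.7%) for SF against WF at ES, 0 (0.887% to 2.54%) for SF against WF at LS, 37 to 72 (25.9% to 43.7%) for SF against Mr at EB, 26 to 49 (24.3% to 30.7%) for SF against Mr at ES and 26 to 67 (17.2% to 39.6%) for SF against Mr at LS. Without both SF_LS_1 and Mr_LS_2 the averaged counts stayed within 1.5 times.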

Other observations

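Beside the genes described above, HF03250 and HF18032, both with an AP2 domain alone and chosen after their values were seen, varied within groups with HF30831 (r = 0.960 and 0.897 for the deviations from the group means over 27 libraries, a description in which the points share libraries). HF03250 read 20.3, 22.4 and 26 FPKM in Mr at EB, 40.5, 246 and 299.8 at ES, then 136, 236 and 338 at LS, and 185, 67.3 and 114 in WF at EB. HF18032 read 5.85, 5.46 and 7.35 in Mr at EB, 26.3, 130.3 and 149 at ES, then 87, 139.8 and 164 at LS. Mr_ES_1 was below the other Mr flowers of ES for both genes, and the change from EB to ES in SF differed from that in Mr by -3.32 (SE 0.87, adjusted p = 0.0338) and -3.66 (SE 0.74, adjusted p = 0.00744), calls lost in 12 alternatives and by voom alone. HF25607 and HF25605, neighbours on chromosome 7, were lower at LS in SF (13, 4.47 and 2.64 and 1.19, 0.73 and 0.459 FPKM) than at ES (19.1, 25.9 and 34.1 and 3.01, 4.27 and 3.53), with overlap at neither gene, while in Mr the levels at LS were 26.6, 24.5 and 8.74 and 5.16, 2.51 and 5.62.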
